A study of Mus musculus with 9 samples.

Results

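The BCL-2 family survival genes described here were 10 mouse genes whose products set the threshold for mitochondrial cell death: Bcl2, Bcl2l1, Mcl1, Bcl2a1b, Bax, Bak1, Bcl2l11, Bbc3, Pmaip1 and Bid. They were picked by gene symbol from the gene expression table, and 10 of 10 were found among its 21883 genes. Levels are given as FPKM, fragments per kilobase of transcript, scaled to the mapped reads of each library, so that levels of different genes can be compared per length. The study examined how Med23, a subunit of the Mediator complex that couples transcription factors to RNA polymerase II, acts in the last maturation step of invariant natural killer T (iNKT) cells, a T cell lineage that recognizes lipids on CD1d. Thymic iNKT cells were sorted by FACS and sequenced as 9 bulk libraries in 3 groups of 3. WT stage 2 and WT stage 3 cells came from wild-type C57BL/6 mice aged 6 weeks, and no treatment is given in the labels. Med23-deficient stage 2 cells came from C57BL/6 mice whose floxed Med23 alleles are deleted by Cre under a Cd4 promoter, so that deletion takes place in T lineage cells by the double-positive thymocyte stage. The age of the Med23-deficient mice is not in the labels, mice of both sexes were used in the study, and whether a library came from 1 mouse or a pool is not stated.

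Cells of the T lineage are kept alive by a balance among BCL-2 family proteins at the mitochondrial outer membrane. Anti-apoptotic members hold back the effectors BAX and BAK, which open that membrane once released, and BH3-only members start the process by binding the anti-apoptotic proteins or the effectors. In lymphocytes this balance is tied to cytokines that signal through the common gamma chain, and iNKT cells depend on IL-15 during their final maturation in the thymus.

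Med23 was first examined in every library. Its FPKM was 5.51, 5.15 and 6.74 in WT stage 2, 4.80, 3.60 and 3.92 in Med23-deficient stage 2 and 7.14, 4.44 and 6.12 in WT stage 3. The Med23-deficient libraries were below every WT stage 2 library but overlapped WT stage 3, and their mean was 70.8% of the WT stage 2 mean (log2 fold change -0.41, SE 0.18, limma adjusted p = 0.552, lower in 3 of 3 libraries). A gene-level value of this kind counts reads over the whole locus, including exons that a floxed allele retains, so it is a weak check of the genotype. The cell labels were then read against marker genes. The 6 T and iNKT genes (Cd3e, Cd3d, Cd3g, Lck, Zbtb16, Cd44) summed to between 529 and 701 FPKM per library, with Cd3g the most abundant. The 5 stage 3 genes (Klrb1c, Tbx21, Il2rb, Klrd1, Klrk1) summed to 163 to 194 FPKM in WT stage 2, 138 to 201 in Med23-deficient stage 2 and 509 to 585 in WT stage 3. The 4 stage 2 genes (Il17rb, Ccr7, Il4, Gata3) summed to 94.1 to 135, 167 to 197 and 41.2 to 41.3 FPKM in the same order. These sums set WT stage 3 apart from both stage 2 groups in every library. The stage 3 sum is mostly Il2rb and Tbx21, and it hides a difference between the stage 2 groups. Klrb1c, which encodes NK1.1, was at 16.3, 26.2 and 7.65 FPKM in WT stage 2 and 4.6, 2.61 and 3.04 in Med23-deficient stage 2. Klrd1 was at 4.66, 11.04 and 12.8 FPKM and 2.72, 1.08 and 0.61, and Klrk1 at 1.11, 1.56 and 1.69 and 0, 0.46 and 0.33. All 3 were lower in every Med23-deficient library. Klrb1c fell by 1.88 on the log2 scale (SE 0.43, limma adjusted p = 0.210) and Klrd1 fell by 2.08 (SE 0.46, limma adjusted p = 0.204). Both were past a fold of 2 with an unadjusted p of at most 0.05, and Klrk1 stood at -0.97 (SE 0.22, limma adjusted p = 0.211). Tbx21 and Il2rb overlapped between the stage 2 groups, at 0.43 (SE 0.22, limma adjusted p = 0.622) and 0.08 (SE 0.20, limma adjusted p = 0.908). Among the stage 2 genes, Ccr7 went against the sum, at -0.73 (SE 0.29, limma adjusted p = 0.493). Il17rb, Il4 and Gata3 were higher in every Med23-deficient library than in WT stage 2.

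Other cell types were scarce in the libraries. The 7 genes of double-positive thymocytes summed to between 1.07 and 5.05 FPKM, with Rag1, Dntt, Cd8a or Cd8b1 the most abundant and Rag2 and Ptcra listed at 0 in several libraries. Of the 5 B cell genes only Cd79a and Cd79b were in the table, and they reached 0.50 FPKM at most. Of the 6 myeloid genes 3 were in the table and summed to 1.69 FPKM or less, with Lyz2 or Itgam the most abundant, and the 1 erythroid gene of 6 in the table, Hbb-bs, reached 0.75. The 7 genes of dividing cells (Mki67, Top2a, Ccnb1, Cdk1, Aurkb, Plk1, Bub1) differed strongly: they summed to 35.4, 40.8 and 50.9 FPKM in WT stage 2, 5.67, 4.14 and 5.51 in Med23-deficient stage 2 and 3.59, 11.02 and 4.05 in WT stage 3, with Mki67 the most abundant in every library. WT stage 3 replicate 2 also stood apart by sex, with Xist at 47.5 FPKM and the Y-linked genes Ddx3y, Eif2s3y, Kdm5d and Uty listed at 0, whereas the other 8 libraries expressed these Y-linked genes and had Xist at 0.01 or less. Values without that library are given below where a count rests on it.

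The members spanned a wide range of levels. Averaged over the 9 libraries, anti-apoptotic Mcl1 (62.3 FPKM, place 494 of 21883) and Bcl2a1b (62.1, place 496) were the most abundant, followed by Bcl2 (22.1, place 1633). The effectors came next, with Bak1 at 10.6 FPKM (place 3572) and Bax at 9.87 (place 3803). Below them were the BH3-only gene Bbc3 at 6.09 FPKM, anti-apoptotic Bcl2l1 at 4.54, and the BH3-only genes Bcl2l11 at 4.36 and Bid at 3.37. Pmaip1, which encodes the BH3-only protein NOXA, was close to the floor of the table at 0.21 FPKM. Mcl1 and Bcl2a1b overlapped in level, as did Bak1 with Bax, and Bcl2l1 with Bcl2l11. The order of Bcl2l1 and Bcl2l11 was not the same in all groups, since the mean of Bcl2l11 was below that of Bcl2l1 at stage 2 and above it in WT stage 3.

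**Figure D1:**
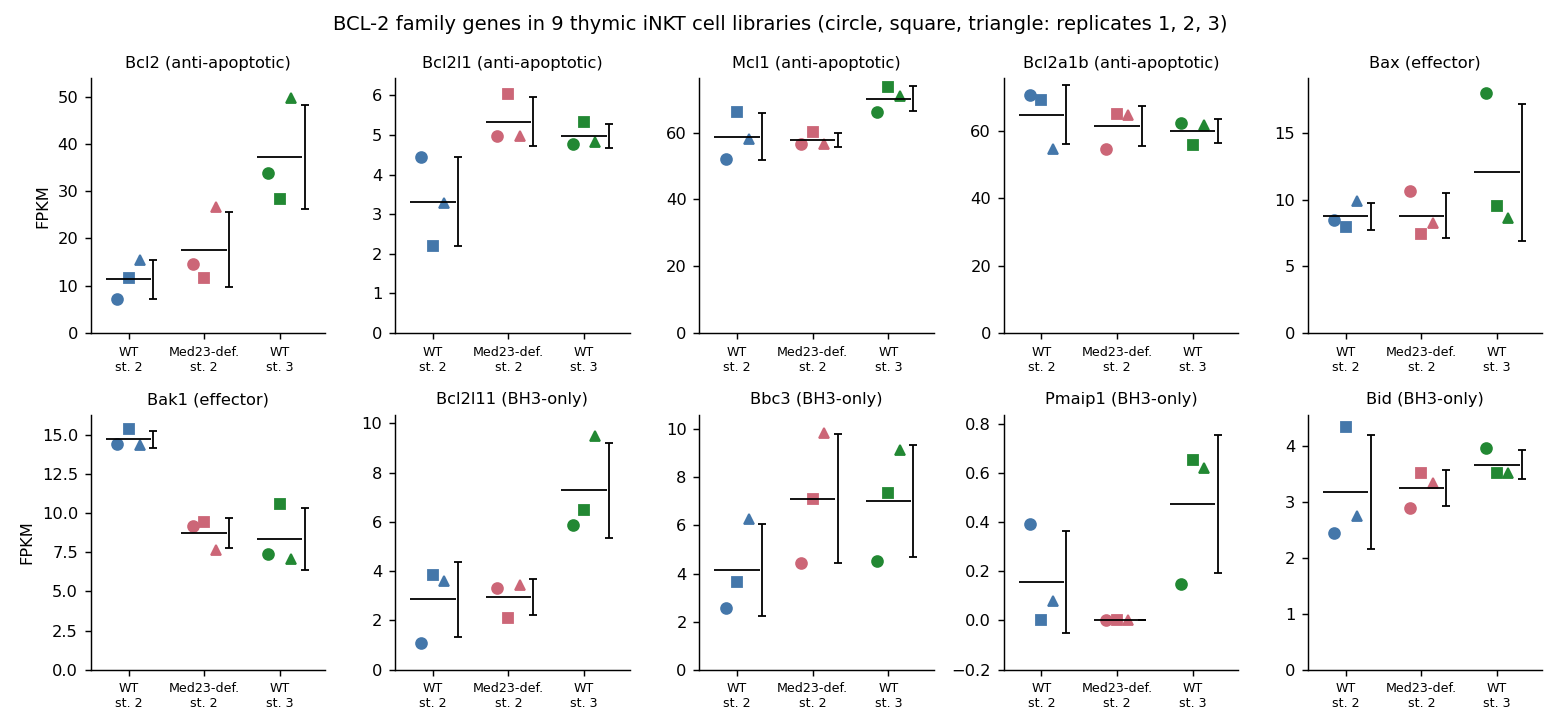
FPKM of the 10 members in each of the 9 libraries. Bars give the mean of 3 libraries and the lines beside them 1 SD; the vertical scale differs between panels. Bcl2 and Bcl2l11 were highest in the 3 WT stage 3 libraries, and Bak1 in the 3 WT stage 2 libraries.

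Bcl2, the founding anti-apoptotic member, varied most among the abundant genes. It stood at 7.17, 11.6 and 15.4 FPKM in WT stage 2, 14.7, 11.6 and 26.6 in Med23-deficient stage 2 and 33.8, 28.4 and 49.6 in WT stage 3. The 3 WT stage 3 libraries were above the other 6, and the 2 stage 2 groups overlapped, with Med23-deficient replicate 3 close below the lowest WT stage 3 library. Mcl1, which encodes a short-lived anti-apoptotic protein, was at 52.1, 66.1 and 58.0 FPKM in WT stage 2, 56.6, 60.3 and 56.6 in Med23-deficient stage 2 and 66.1, 73.6 and 70.9 in WT stage 3. WT stage 3 was again highest, though its lowest library exceeded the highest WT stage 2 library by very little. Bcl2l1, which encodes BCL-XL, was at 4.45, 2.20 and 3.28 FPKM in WT stage 2, 4.98, 6.04 and 4.97 in Med23-deficient stage 2 and 4.77, 5.32 and 4.83 in WT stage 3. Here WT stage 2 was the low group, below all 6 other libraries.

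Bcl2a1b encodes a copy of A1, an anti-apoptotic protein of lymphoid and myeloid cells. Its levels were 70.7, 69.3 and 54.8 FPKM in WT stage 2, 54.7, 65.1 and 64.6 in Med23-deficient stage 2 and 62.3, 55.9 and 61.9 in WT stage 3. The 3 groups overlapped. The mouse A1 genes are near-copies of one another, which bears on how their reads can be assigned. In the GENCODE vM21 annotation of GRCm38, the coding sequence of Bcl2a1b differed from that of Bcl2a1d at 6 of 516 bases (98.8% identity) and from that of Bcl2a1a at 11 (97.9%), and 12 of 516 bases varied among the 3 copies. Of all windows of 100 bases in the longest Bcl2a1b transcript, 43.2% were found in no other gene, 40.4% in 1 other gene and 16.4% in 2 or more, shared with Bcl2a1a, Bcl2a1d or Gm29094. The authors counted on the earlier release vM12, whose gene models may differ. They kept reads that hit a pair of loci at most, so the level of Bcl2a1b may hold reads of its copies or lack reads of its own. Bcl2a1d itself was listed at 29.4 to 66.2 FPKM and Bcl2a1a at 4.23 to 9.89, and Gm29094, whose gene model overlaps Bcl2a1b on the same strand, averaged 4.0. To show how little separates the copies, their first 60 coding bases, all in coding exon 1 on chromosome 9, are printed from GENCODE vM21 (GRCm38), 5′ to 3′ on the coding strand, at chr9:89199360-89199419 (plus strand) for Bcl2a1b, chr9:88957051-88957110 (plus strand) for Bcl2a1a and chr9:88731660-88731719 (minus strand) for Bcl2a1d. Capitals mark the 6 bases that vary among the copies.
Bcl2a1b: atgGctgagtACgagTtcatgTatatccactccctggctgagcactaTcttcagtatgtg
Bcl2a1a: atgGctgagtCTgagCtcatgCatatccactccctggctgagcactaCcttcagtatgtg
Bcl2a1d: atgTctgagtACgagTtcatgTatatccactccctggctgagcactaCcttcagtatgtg

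The effectors, BAK and BAX, open the mitochondrial outer membrane, and their genes differed in pattern. Bak1 was at 14.4, 15.3 and 14.4 FPKM in WT stage 2, 9.16, 9.40 and 7.62 in Med23-deficient stage 2 and 7.40, 10.6 and 7.04 in WT stage 3. WT stage 2 lay above all 6 other libraries, and the other 2 groups overlapped. Bax was at 8.46, 7.95 and 9.89 FPKM in WT stage 2, 10.7, 7.46 and 8.24 in Med23-deficient stage 2 and 18.0, 9.56 and 8.63 in WT stage 3. All 3 groups overlapped, and WT stage 3 replicate 1 alone stood high. The ratio of Bak1 to Bax was 1.45 to 1.93 in WT stage 2, 0.858 to 1.26 in Med23-deficient stage 2 and 0.412 to 1.11 in WT stage 3, so that every WT stage 2 library had the higher ratio.

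Among the BH3-only genes, Bcl2l11, which encodes BIM, was at 1.10, 3.84 and 3.62 FPKM in WT stage 2, 3.31, 2.09 and 3.44 in Med23-deficient stage 2 and 5.89, 6.49 and 9.49 in WT stage 3. The WT stage 3 libraries were above the other 6, and WT stage 2 replicate 1 was the lowest of all. Bbc3, which encodes PUMA, was at 2.55, 3.66 and 6.25 FPKM in WT stage 2, 4.44, 7.08 and 9.83 in Med23-deficient stage 2 and 4.54, 7.35 and 9.14 in WT stage 3. All groups overlapped, and in each group replicate 1 was lowest and replicate 3 highest. Bid, whose product is cut by caspase-8 and links death receptors to mitochondria, was at 2.44, 4.34 and 2.75 FPKM in WT stage 2, 2.89, 3.53 and 3.34 in Med23-deficient stage 2 and 3.97, 3.52 and 3.53 in WT stage 3, also overlapping. Pmaip1 was listed at 0.39, 0 and 0.08 FPKM in WT stage 2, at 0 in 3 of 3 Med23-deficient libraries and at 0.15, 0.65 and 0.62 in WT stage 3. At such levels a few reads separate the groups, and no fold against the Med23-deficient group is given. The fit still holds a value for it, set by the pseudocount, which enters the counts and medians over 10 members below.

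Going from stage 2 to stage 3 in wild-type cells, Bcl2 and Bcl2l11 rose, an anti-apoptotic gene and a pro-apoptotic one. Bcl2 rose by 1.65 on the log2 scale (SE 0.31, limma adjusted p = 0.0740, higher in 3 of 3 libraries), which is a ratio of means of 3.28. Bcl2l11 rose by 1.18 (SE 0.38, limma adjusted p = 0.249, higher in 3 of 3 libraries), a ratio of means of 2.55. These 2 of 10 members passed a fold of at least 2 with an unadjusted p of at most 0.05, the study's cut-offs applied here to limma fits in place of Ballgown, against 1.7% of the 20689 genes tested that passed it upward. No member passed it downward (0 of 10, against 1.9% of all genes). By limma 0 of 10 had an adjusted p of at most 0.05 (1.67% of all genes), 3 had an unadjusted p of at most 0.05 (Bcl2, Bak1 and Bcl2l11, against 13.2%), and the model styled after Ballgown gave 2 members by fold and p (3.73%) and 0 by adjusted p (0.0242%). The WT stage 3 libraries did not overlap WT stage 2 and were higher for 4 members, Bcl2, Bcl2l1, Mcl1 and Bcl2l11 (7.36% of all genes), and lower for 1, Bak1 (10.4%). Bulk samples cannot tell fewer cells from less RNA per cell, and the p-values measure the spread between libraries, whose relation to separate mice is not stated. The sex genes show that the WT stage 3 libraries at least did not all come from the same sample.

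The remaining members did not pass. The log2 fold change was -0.77 for Bak1 (SE 0.17, adjusted p = 0.102), 0.66 for Bbc3 (SE 0.35, adjusted p = 0.499) and 0.50 for Bcl2l1 (SE 0.24, adjusted p = 0.448). It was 0.36 for Bax (SE 0.28, adjusted p = 0.667), and 0.05 without WT stage 3 replicate 1. Mcl1 stood at 0.26 (SE 0.11, adjusted p = 0.393), Bid at 0.19 (SE 0.23, adjusted p = 0.745) and Bcl2a1b at -0.10 (SE 0.12, adjusted p = 0.726). Pmaip1 stood at 0.34 (SE 0.20, adjusted p = 0.534), a value that depends on the pseudocount. Over the 10 members the median log2 fold change was 0.35, beside -0.01 over all genes tested. The call of Bcl2l11 rested on single libraries: leaving out WT stage 2 replicate 1 gave 0.79 and leaving out WT stage 3 replicate 3 gave 0.99, past the rule in neither case, while leaving out WT stage 3 replicate 2, the library with Xist, gave 1.24. The model styled after Ballgown gave 2.03. Bcl2 kept its call in each case, at 1.38 to 1.88, with adjusted p between 0.0259 and 0.296 over all alternatives.

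The libraries do not share a scale that is known to be right, so the directions were also read after rescaling. With every library set to the same summed FPKM, the median over genes that averaged 1 FPKM or more moved to -0.13 in WT stage 3 against WT stage 2 and to -0.15 in Med23-deficient against WT stage 2. That sum is dominated by Gm23935, which held between 62.2% and 71.9% of it in each library. Relative to these medians, Bcl2 stood at 1.64 and Bcl2l11 at 1.11 in WT stage 3 against WT stage 2, and Bak1 at -0.70. On that scale Bcl2l11 no longer reached a fold of 2 (0.98 before the median is subtracted), while no member changed sign between stages under any scaling.

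**Figure D2:**
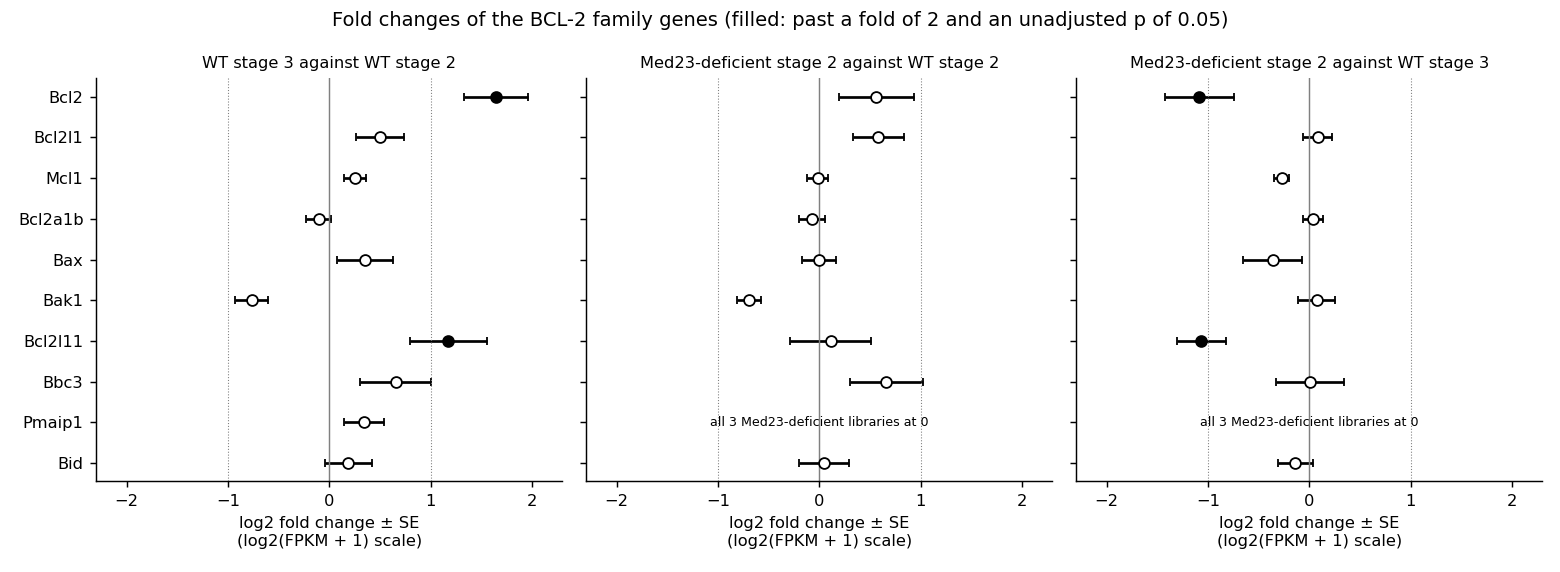
Log2 fold changes of the members with their standard errors in the 3 comparisons, which share samples. Filled points passed a fold of at least 2 with an unadjusted p of at most 0.05, and dotted lines mark that fold. No fold is drawn for Pmaip1 against the Med23-deficient group, where it was listed at 0.

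In Med23-deficient against WT stage 2 cells, no member passed the rule. By limma 0 of 10 passed upward (against 0.798% of 20674 genes tested), 0 passed downward (1.32%) and 0 had an adjusted p of at most 0.05 (0.213%). At an unadjusted p of at most 0.05 there was 1, Bak1 (9.58% of all genes), and the model styled after Ballgown gave 1 by fold and p, Bcl2 at 1.24 (1.86%), and 0 by adjusted p (0.00484%). Bak1, the effector, had a log2 fold change of -0.69 (SE 0.12, adjusted p = 0.122) and a mean at 59.4% of WT stage 2, lower in 3 of 3 libraries. Bak1 was the 1 member whose Med23-deficient libraries were all below WT stage 2 (8.37% of all genes), and Bcl2l1 the 1 member whose libraries were all above (5.63%), at 0.58 (SE 0.25, adjusted p = 0.540). Bcl2 stood at 0.56 (SE 0.37, adjusted p = 0.721) and Bbc3 at 0.66 (SE 0.36, adjusted p = 0.647), with overlapping groups. Bcl2l11 stood at 0.11 (SE 0.40, adjusted p = 0.930), Bid at 0.05 (SE 0.25, adjusted p = 0.951), Bax at -0.01 (SE 0.17, adjusted p = 0.993), Mcl1 at -0.02 (SE 0.10, adjusted p = 0.964) and Bcl2a1b at -0.07 (SE 0.13, adjusted p = 0.863). These last 5 values changed sign under some settings, among them the upper-quartile scaling for Bax, Mcl1 and Bcl2a1b (0.09, 0.09 and 0.03) and the summed-FPKM scaling for Bcl2l11 and Bid (-0.01 and -0.05). The median over the members was 0.02, or 0.05 without Pmaip1, beside -0.01 over all genes. Across all genes 165 passed upward and 272 downward (37.8% upward), a share that was 26% with the same summed FPKM and 51.8% with the model styled after Ballgown. The stage markers also differed between these groups. Of the stage 3 genes, Klrb1c, Klrd1 and Klrk1 were lower in every Med23-deficient library, whereas Tbx21 and Il2rb stood at 0.43 and 0.08 with overlapping groups. The summed stage 2 genes were higher in every Med23-deficient library, although Ccr7 among them stood at -0.73. The part of these markers in the values of the members was not tested.

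Between groups, the level of Bak1 went with the genes of dividing cells. Libraries with a summed level of these 7 genes of 35.4 FPKM or more had Bak1 at 14.4 or above, and those with 11.02 or less had Bak1 at 10.6 or below. Within the groups the order was not shared. The WT stage 3 library with the highest sum had the highest Bak1 of its group (10.6 FPKM). The WT stage 2 library with the highest sum (50.9) had the lowest Bak1 of its group, though only by 14.35 against 14.38 FPKM. The Med23-deficient library with the lowest sum (4.14) had the highest Bak1 (9.40), in a group whose sums spanned only 4.14 to 5.67. Gaps this small say little about the order within groups. Cell division and group cannot be told apart in these samples, and the part of division in the level of Bak1 was not tested.

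**Figure D3:**
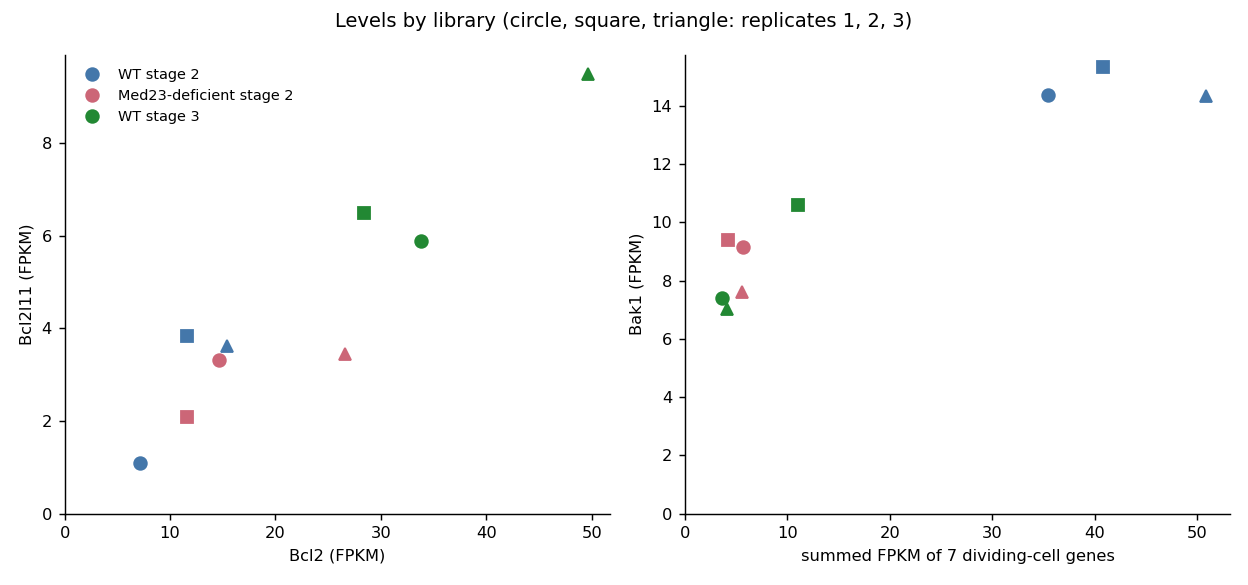
Bcl2l11 against Bcl2 (left) and Bak1 against the summed FPKM of 7 genes of dividing cells (right), 1 point per library. The WT stage 3 libraries lie highest for Bcl2 and Bcl2l11, and the WT stage 2 libraries lie apart for Bak1.

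Against WT stage 3, the Med23-deficient stage 2 cells had lower Bcl2 and Bcl2l11. Bcl2 fell by 1.08 on the log2 scale (SE 0.34, limma adjusted p = 0.314), to 47.2% of the WT stage 3 mean, lower in 3 of 3 libraries. Bcl2l11 fell by 1.06 (SE 0.24, limma adjusted p = 0.161), to 40.4%, also lower in 3 of 3. These 2 of 10 members passed the rule downward (against 1.48% of 20846 genes tested) and 0 passed it upward (1.39%). By limma 0 members had an adjusted p of at most 0.05 (1.33%) and 4 had an unadjusted p of at most 0.05, Bcl2, Mcl1, Bcl2l11 and Pmaip1 (10.2%), while the model styled after Ballgown gave 2 by fold and p (2.3%) and 0 by adjusted p (0.0863%). The Med23-deficient libraries were all below WT stage 3 for the same 4 members (6.75% of all genes) and all above for 0 (7.48%). This comparison shares its samples with the other 2 and adds no separate evidence.

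Both calls depended on single libraries. Bcl2 did not pass without Med23-deficient replicate 1 (-1.001), Med23-deficient replicate 2 (-0.84) or WT stage 3 replicate 3 (-0.86). Bcl2l11 did not pass without Med23-deficient replicate 2 (-0.90) or WT stage 3 replicate 3 (-0.88), nor with the same summed FPKM (-0.99). Without WT stage 3 replicate 2, the library with Xist, Bcl2 stood at -1.26 and Bcl2l11 at -1.13, both past the rule. Of the other members, Mcl1 stood at -0.27 (SE 0.08, adjusted p = 0.241), Bax at -0.36 (SE 0.29, adjusted p = 0.750), Bid at -0.14 (SE 0.17, adjusted p = 0.804) and Bcl2l1 at 0.08 (SE 0.15, adjusted p = 0.873). Bak1 stood at 0.07 (SE 0.18, adjusted p = 0.910), Bcl2a1b at 0.03 (SE 0.10, adjusted p = 0.928) and Bbc3 at 0.01 (SE 0.33, adjusted p = 0.997), the last turning to -0.01 with the same summed FPKM. The median over the members was -0.21, or -0.14 without Pmaip1, beside 0.00 over all genes.

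**Figure D4:**
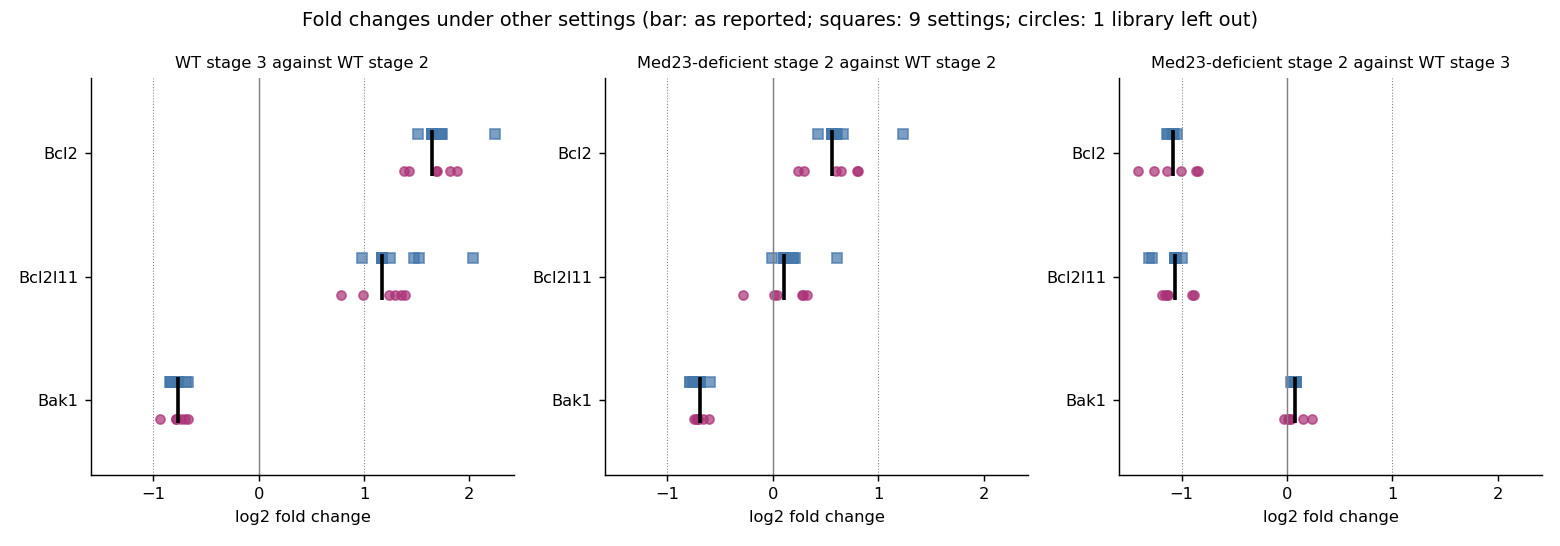
Log2 fold changes of Bcl2, Bcl2l11 and Bak1 under the other settings. Vertical bars give the reported value, squares the 9 other ways of processing and circles the fits with 1 library left out; dotted lines mark a fold of 2. Bcl2 stayed past that fold between WT stages under every setting drawn.

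The members were then summed by role in each library, as a description without a test. The 4 anti-apoptotic members summed to 131 to 149 FPKM in WT stage 2 and 131 to 153 in Med23-deficient stage 2. In WT stage 3 they summed to 163 to 187, the highest group for these members. The A1 copies Bcl2a1a and Bcl2a1d are not in this sum. Bcl2a1d was listed at 41.3 to 57.6 FPKM in WT stage 2 and 44.9 to 66.2 in Med23-deficient stage 2. It was at 29.4 to 47.0 in WT stage 3. The sums, ratios and shares given here therefore describe the members alone, and how the groups separate may differ with those copies included. The 2 effectors summed to 22.8 to 24.2, 15.9 to 19.8 and 15.7 to 25.4 FPKM in the same order. The 4 BH3-only genes summed to 6.48 to 12.7, 10.6 to 16.6 and 14.6 to 22.8 FPKM. The ratio of anti-apoptotic to pro-apoptotic members in FPKM overlapped in the 3 groups. It was 3.56 to 4.58 in WT stage 2, 4.30 to 4.84 in Med23-deficient stage 2 and 4.18 to 4.87 in WT stage 3. The share of Bcl2 in the anti-apoptotic sum separated the WT stages, while Med23-deficient stage 2 overlapped both. Bcl2 gave 5.33% to 11.7% of its FPKM in WT stage 2, 8.10% to 17.4% in Med23-deficient stage 2 and 17.4% to 26.5% in WT stage 3, while Mcl1 and Bcl2a1b together gave 85.8% to 91.4%, 79.4% to 87.7% and 70.9% to 79.4%. The ratio of Bcl2 to Bcl2l11 overlapped in all groups, at 3.01 to 6.52, 4.43 to 7.73 and 4.37 to 5.75. Over the 9 libraries Bcl2 and Bcl2l11 had a Pearson r of 0.91 on the log2 scale and Bcl2 and Bak1 of -0.77, points that share their groups and their scaling.

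Because Bcl2 and Bcl2l11 rose together between WT stages, the 250 bases before their start sites are printed, beside those of Bak1, the 1 member lower in every WT stage 3 library without passing the rule. A start site was found for 9 of 10 members in the RefSeq promoter table (GRCm38.p6), with 14 start sites in all. Motifs were searched on both strands: TTCNNNGAA, bound by STAT5, was in 7.02% of 32851 promoters of that length, GTAAACA, bound by FOXO factors, in 3.17%, TGANTCA, bound by AP-1, in 6.75%, and TGTGGT, bound by RUNX factors, in 14%. Bcl2, at chr1:106714291-106714540 (minus strand), held none of these letters. Bcl2l11, at chr2:128125788-128126037 (plus strand, the first of its start sites), held GTAAACA 227 to 221 bases before the start. Bak1, at chr17:27028628-27028877 (minus strand), held TGTGGT 221 to 216 bases before the start. Each is given 5′ to 3′ on the gene's strand, and capitals mark the motif.
Bcl2: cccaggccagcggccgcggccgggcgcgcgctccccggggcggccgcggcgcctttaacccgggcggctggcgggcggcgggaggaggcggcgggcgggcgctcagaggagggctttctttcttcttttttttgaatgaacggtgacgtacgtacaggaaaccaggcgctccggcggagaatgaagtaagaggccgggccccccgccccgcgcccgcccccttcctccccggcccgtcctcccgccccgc
Bcl2l11: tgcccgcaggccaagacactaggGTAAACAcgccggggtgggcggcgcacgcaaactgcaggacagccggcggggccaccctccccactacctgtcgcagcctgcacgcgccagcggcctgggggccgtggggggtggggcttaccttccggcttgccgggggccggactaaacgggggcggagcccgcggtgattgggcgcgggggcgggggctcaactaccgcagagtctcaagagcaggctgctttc
Bak1: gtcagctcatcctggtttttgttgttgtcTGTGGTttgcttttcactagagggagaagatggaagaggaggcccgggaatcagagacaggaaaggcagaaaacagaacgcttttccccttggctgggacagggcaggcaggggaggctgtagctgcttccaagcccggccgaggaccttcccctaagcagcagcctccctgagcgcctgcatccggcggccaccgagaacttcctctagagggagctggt

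Among the other start sites, Bcl2a1b held TGANTCA 164 to 158 bases before its start, and the second start site of Bbc3 held GTAAACA 167 to 161 bases before, on the minus strand. A match is a description of the letters and no sign of binding. GC content of the printed stretches was 74.8% for Bcl2, 72.0% for Bcl2l11 and 58.4% for Bak1. In the deposited table, 5 of 10 members had a gene model that overlaps them, 8 models in all. Bcl2l13 overlaps Bid on the opposite strand and averaged 4.39 FPKM, and 22.9% of the 100-base windows of the longest Bid transcript were shared with it. For Bak1 10.7% of windows were shared with Ggnbp1, for Bax 9.49% with Gm45808 and for Bcl2 5.63% with D630008O14Rik. The library kit was stranded, but whether strand was used in counting is not stated.

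Genes around the family were taken from 6 lists. Of 16 BCL-2 relatives 13 were in the table, and 0 passed the rule in either direction between WT stages by limma (0 at an unadjusted p of at most 0.05, beside 13.2% of all genes). Their median log2 fold change was -0.30 in WT stage 3 against WT stage 2, 0.00 in Med23-deficient against WT stage 2 and -0.01 in Med23-deficient against WT stage 3, beside the medians of -0.01, -0.01 and 0.00 over all genes. The most abundant, the A1 copy Bcl2a1d, stood at -0.46 (SE 0.21, adjusted p = 0.429) between WT stages and at 0.15 (SE 0.20, adjusted p = 0.802) in Med23-deficient against WT stage 2. None passed in the latter comparison either. Against WT stage 3, 1 relative rose in Med23-deficient cells (1.39% of all genes did), the BH3-only gene Bik, from 0, 0 and 0.42 FPKM to 1.51, 1.65 and 0.80 (1.03, SE 0.23, adjusted p = 0.159). Of these 3 WT stage 3 libraries 2 were listed at 0.

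Among 18 genes of the death machinery downstream of mitochondria, 1 fell between WT stages (1.9% of all genes did), Birc5, which encodes survivin, an inhibitor of apoptosis also needed for cell division. Birc5 was at 2.82, 1.58 and 2.83 FPKM in WT stage 2, 0.17, 1.05 and 0.30 in Med23-deficient stage 2 and 0.29, 0 and 0 in WT stage 3. It fell by 1.62 in WT stage 3 (SE 0.25, adjusted p = 0.0445) and by 1.20 in Med23-deficient stage 2 (SE 0.33, adjusted p = 0.290) against WT stage 2, in the same libraries where the genes of dividing cells were low, a link that was not tested. Since 2 of 3 WT stage 3 libraries were listed at 0, the size of the first value is set by the pseudocount, and near 0 adjusted calls are the least certain. In the latter comparison Endog, a mitochondrial nuclease, also fell by 1.10 (SE 0.34, adjusted p = 0.365), from 3.44, 5.05 and 3.85 FPKM to 0.55, 2.14 and 1.73. Against WT stage 3, Endog fell by 1.05 in Med23-deficient cells (SE 0.40, adjusted p = 0.446). The list's medians were -0.06, -0.19 and -0.02 in the 3 comparisons, in the order given above.

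Of 10 genes of the death receptor arm, 1 rose between WT stages (1.7% of all genes did), Fasl, the ligand of the death receptor Fas. Fasl was at 9.34, 17.7 and 19.0 FPKM in WT stage 2, 17.9, 14.6 and 35.7 in Med23-deficient stage 2 and 49.5, 59.6 and 68.1 in WT stage 3. It rose by 1.93 (SE 0.28, adjusted p = 0.0399) between WT stages and fell by 1.43 (SE 0.33, adjusted p = 0.161) in Med23-deficient cells against WT stage 3. In Med23-deficient against WT stage 2, 0 of the 10 passed by limma, with 2 at an unadjusted p of at most 0.05, beside 9.58% of all genes. These were Ripk1 at -0.86 (SE 0.13, adjusted p = 0.0908) and Fas at -0.75 (SE 0.29, adjusted p = 0.491), both lower in every Med23-deficient library. The most abundant of the list, Casp8, the initiator caspase that cuts BID, stood at -0.14 (SE 0.13, adjusted p = 0.731). The list's medians were 0.01, -0.08 and -0.18. Of 12 genes of p53 and its targets, 0 passed between WT stages (2 at an unadjusted p of at most 0.05, beside 13.2% of all genes) or in Med23-deficient against WT stage 2 (3 at that p, beside 9.58%). The most abundant, Ccng1, stood at -0.74 (SE 0.13, adjusted p = 0.0564) and -0.11 (SE 0.16, adjusted p = 0.834) in these comparisons. Perp, a p53 target of the plasma membrane, rose by 1.15 (SE 0.39, adjusted p = 0.364) in Med23-deficient cells against WT stage 3, from 0, 0.81 and 0.45 FPKM to 3.75, 1.87 and 1.10, and the medians were -0.22, -0.16 and -0.03.

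Survival cytokine signalling lies upstream of Bcl2 and Mcl1. Of its 13 genes 3 rose between WT stages, where 1.7% of all genes passed upward: Il2rb, the receptor chain shared by IL-2 and IL-15, by 1.36 (SE 0.14, adjusted p = 0.0171), the kinase gene Pim1 by 1.25 (SE 0.19, adjusted p = 0.0420), and Cish, a target of STAT5, by 1.03 (SE 0.34, adjusted p = 0.262). Il2rb is also 1 of the 5 stage 3 markers used above. In Med23-deficient against WT stage 2, where 0.798% of all genes passed upward, 2 rose: Il2ra, the IL-2 receptor alpha chain, by 1.33 (SE 0.30, adjusted p = 0.206), from 0.95, 1.02 and 1.5 FPKM to 3.66, 3.40 and 6.57, and Cish by 1.27 (SE 0.48, adjusted p = 0.478). Against WT stage 3, where 1.39% of all genes passed upward and 1.48% downward, Il2ra rose by 1.71 (SE 0.30, adjusted p = 0.0697) and Il2rb fell by 1.29 (SE 0.19, adjusted p = 0.0454). At an unadjusted p of at most 0.05 there were 6, 3 and 9 of the 13 in the 3 comparisons, beside 13.2%, 9.58% and 10.2% of all genes. Above 0 between WT stages were 9 of the 13, whereas Stat5b was lower in every WT stage 3 library, at -0.65 (SE 0.18, adjusted p = 0.184). The medians were 0.29, 0.10 and -0.10. Of 10 regulators of BCL-2 family transcription or turnover, 0 passed by limma in any of the 3 comparisons (4, 2 and 1 at an unadjusted p of at most 0.05, beside 13.2%, 9.58% and 10.2% of all genes), with medians of -0.12, -0.13 and 0.02. The most abundant, Atf4, a factor of the stress response, stood at 0.45 (SE 0.12, adjusted p = 0.154), -0.20 (SE 0.14, adjusted p = 0.731) and -0.66 (SE 0.10, adjusted p = 0.0549).

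Among the listed genes, 6 of these calls did not hold under every setting and with each library left out. Between WT stages Cish did not pass without WT stage 2 replicate 1 (0.77) or 2 (0.98) or WT stage 3 replicate 2 (0.95) or 3 (0.96), nor with the same summed FPKM (0.84). In Med23-deficient against WT stage 2, Endog did not pass when WT stage 2 replicate 2 (-0.97) or Med23-deficient replicate 1 (-0.79) was left out, nor with the model styled after Ballgown (-1.01). In that comparison Cish did not pass without WT stage 2 replicate 1 (1.01) or 2 (1.22), or Med23-deficient replicate 2 (1.35) or 3 (0.84), nor with the same summed FPKM (1.05). Against WT stage 3, Bik fell short when Med23-deficient replicate 1 (0.96) or 2 (0.92) or WT stage 3 replicate 1 or 2 (0.94 each) was left out, and with the same summed FPKM (0.76). Endog did not pass there without Med23-deficient replicate 1 (-0.74) or 3 (-1.15) or WT stage 3 replicate 1 (-1.01) or 2 (-0.81), with the same summed FPKM (-0.92) or with the model styled after Ballgown (-1.04). Perp did not pass there when Med23-deficient replicate 1 (0.83) or WT stage 3 replicate 1 (0.92) or 3 (1.19) was left out, with a pseudocount of 0.01 (3.67), the same summed FPKM (0.90), the model styled after Ballgown (1.13) or a replicate block (1.15).

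Adjusted p-values of the listed genes depended on single libraries and on the settings. Between WT stages the limma adjusted p of Birc5 (log2 fold change -1.62) was above 0.05 with any 1 of WT stage 2 replicates 1, 2 and 3 and WT stage 3 replicates 1, 2 and 3 left out, and ran from 0.0207 to 0.282 over all alternatives. Those of Fasl (1.93), Il2rb (1.36) and Pim1 (1.25) were above 0.05 with WT stage 2 replicate 2 or 3 or any WT stage 3 library left out, and ran from 0.0101, 0.00356 and 0.00902 to 0.162. Against WT stage 3 that of Il2rb (-1.29) was above 0.05 with any 1 of the 6 libraries left out, and ran from 0.0129 to 0.324. The log2 fold changes kept their sign in each case, but their size varied for genes near 0. With pseudocounts of 0.1 and 0.01, Birc5 stood at -3.95 and -6.23 between WT stages and at -2.28 and -2.59 in Med23-deficient against WT stage 2. The same pseudocounts gave, against WT stage 3, 2.98 and 5.18 for Bik, 2.50 and 3.67 for Perp and 2.603 and 2.77 for Il2ra. A pseudocount of 0.01 gave -1.67 for Endog against WT stage 2 and -1.59 against WT stage 3. For Cish the model styled after Ballgown gave 1.74 between WT stages and 1.99 in Med23-deficient against WT stage 2.

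**Figure D5:**
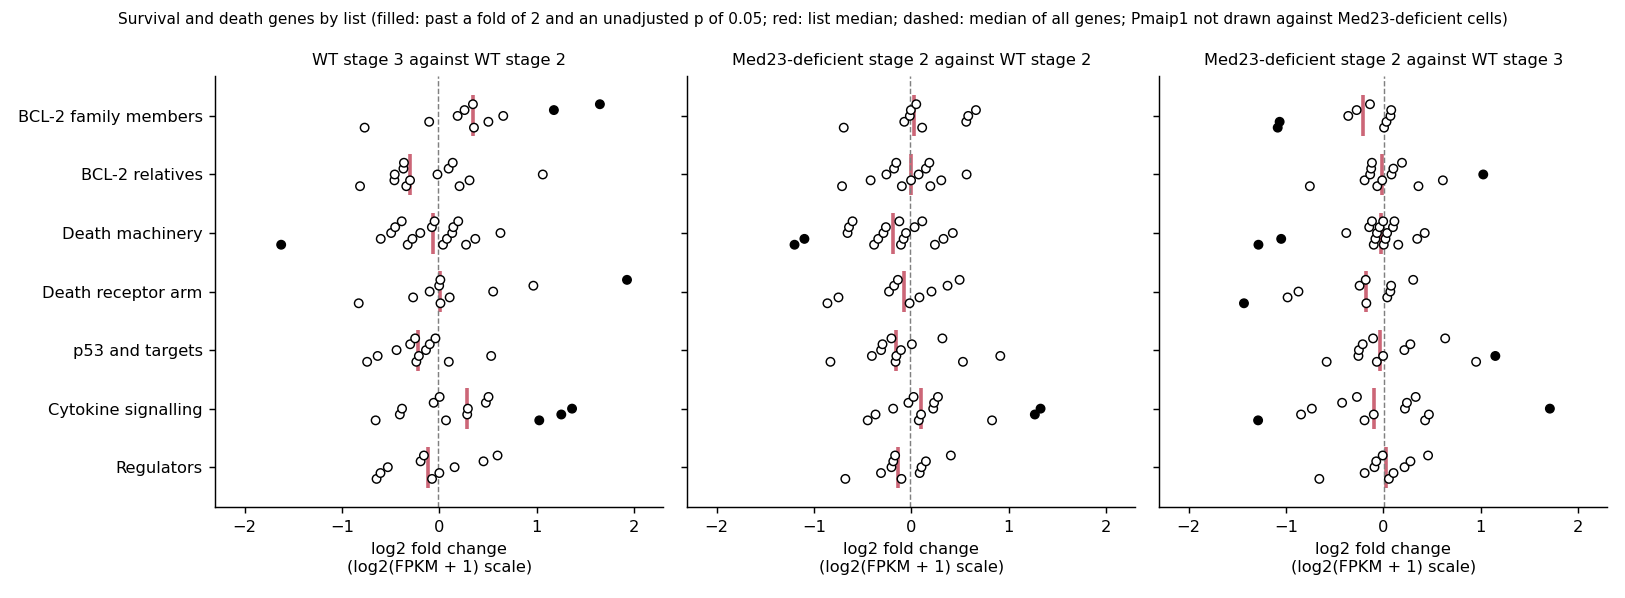
Log2 fold changes of the members and of the 6 lists in the 3 comparisons. Filled points passed a fold of at least 2 with an unadjusted p of at most 0.05, short red lines give the median of each list, and the dashed line gives the median of all genes tested. Between WT stages the cytokine list had 3 points past the rule, all to the right.

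Genes with the profile most like that of 3 members were sought among 9652 genes that averaged 1 FPKM or more, with models known only by a number left out. Over the 9 libraries Bcl2 was most like Usp48 (r = 0.98), Card6 (0.98) and Fasl (0.97). Bcl2l11 was most like Dmrta1 (0.96), Pde7a (0.94) and Tspyl2 (0.94). Bcl2a1b, which did not separate the groups, was most like Mrgbp (0.96), Galns (0.92) and Msantd4 (0.90). These values describe 9 points in 3 groups, and no p was taken.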

How the data were processed

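FPKM values were taken as deposited by the authors for 21883 genes in 9 libraries. The authors obtained them with StringTie on GENCODE vM12 genes, per the study's methods and the submitters' processing notes. Its input was HISAT2 alignments to mm10, made after trimming by Trimmomatic 0.36 and without reads placed at more than a pair of loci. Values are listed to 2 decimals. Depth per library was not used here, so no counting interval could be given.

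Genes above 0 in at least 1 of the 6 libraries compared were fitted as log2(FPKM + 1) with limma 3.58.1 (lmFit, eBayes with trend) in R 4.3.3. Benjamini-Hochberg adjustment covered all genes tested. Calls used a fold of at least 2 with an unadjusted p of at most 0.05, or an adjusted p of at most 0.05. An exact permutation test of 3 against 3 cannot go below 0.1 and was not used. The fit was tested on simulated data, where adjusted calls among genes listed near 0 held more errors than the threshold allows. Python 3.11.15, numpy 2.4.6, pandas 2.3.3 and matplotlib 3.10.9 were used for summaries.

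The members and lists were chosen with earlier results of these data known. Genes were named by rule: all 10 members, Med23, every listed gene past a threshold (up to 6 per list) or otherwise the most abundant of the list, and the 3 genes most like Bcl2, Bcl2a1b and Bcl2l11. Marker genes, genes that overlap members, and the listed genes Ripk1, Fas and Stat5b were named besides. Alternatives were pseudocounts of 0.1 and 0.01, a mean FPKM of at least 1, a common sum (TPM scale), a common upper quartile, limma without trend, a fit styled after Ballgown that takes library size as a covariate, all 9 libraries in 1 fit, a replicate block, and each library left out.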

Additional observations from a re-analysis of the deposited data

How the results depend on the processing

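Each result was recomputed under up to 15 alternatives. By fold and p, of 30 member values 17 kept sign and call throughout, 8 turned sign, 3 lost a call and 2 gained one in some setting, and the cause was not tested. Of 36 list counts 15 stayed within 1.5 times. Pmaip1, and Bik against WT stage 3, gave no value with a mean FPKM of at least 1.

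WT stage 3 against WT stage 2: the 2 members past fold and p became 1 on the TPM scale and 1 to 2 with a library left out. The 0 past the adjusted p became 1 with a pseudocount of 0.01 (Bcl2), with a mean FPKM of at least 1 (Bcl2) and with all 9 libraries (Bak1).

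Med23-deficient against WT stage 2: the 0 past fold and p became 1 with the Ballgown-style model (Bcl2). Signs turned for Mcl1 at the upper quartile (0.0885), with the Ballgown-style model (0.0212) and with a library left out (-0.0969 to 0.0714), for Bcl2a1b at the upper quartile (0.0316) and left out (-0.189 to 0.0079), and for Bax at the upper quartile (0.0893), with the Ballgown-style model (0.0304) and left out (-0.139 to 0.0934). They turned for Bcl2l11 on the TPM scale (-0.00678) and left out (-0.279 to 0.323), and for Bid on the TPM scale (-0.0517) and left out (-0.0762 to 0.241). Of the listed genes, Bcl2a1d (-0.00612 to 0.320) and Ccng1 (-0.241 to 0.0306) turned with a library left out.

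Med23-deficient against WT stage 3: the 2 past fold and p became 1 on the TPM scale, 3 at both smaller pseudocounts (Pmaip1, listed at 0 in every Med23-deficient library, so that the pseudocount sets its fold) and 0 to 2 with a library left out. The 0 past the adjusted p became 0 to 1 with a library left out (Pmaip1, without WT stage 3 replicate 1). Signs turned with a library left out for Bcl2a1b (-0.0182 to 0.112), Bak1 (-0.0256 to 0.238) and Bbc3 (-0.237 to 0.268), and for Bbc3 on the TPM scale (-0.0138).

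Replicate numbers were not taken to pair the libraries, since of 9 same-numbered pairs only the 3 between replicates 3 had r above 0.1 (0.00 to 0.27 over the 9). As a hint from the data, 11 of 18 matched best with their own number. Replicates 3 had negative r with every other number. Values were centred within each group for these r, which largely forces such negative values, so they add no separate hint. With the replicate number as a replicate block, the member counts past fold and p were 2, 0 and 2 in the 3 comparisons, and all genes past the adjusted p were 19, 0 and 42. Bbc3 kept 0.66 in both comparisons with WT stage 2, with adjusted p = 0.256 (WT stage 3) and 0.400 (Med23-deficient) in that fit.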
